A study of Rattus norvegicus with 3 samples.

Results

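The genes described here encode the extracellular matrix of granulosa cells and the receptors that hold cells to it: collagens, laminins, integrins, fibronectin and a fixed set of other matrix proteins and syndecans. The rule that chose them uses gene symbols and no signal, although it was drawn up with earlier results of these data known. A probe set counted when the platform annotation gave it 1 gene symbol, and that symbol was a collagen chain (Col, digits, a, digits), began with Lama, Lamb, Lamc, Itga or Itgb and a digit, or was Fn1, Dcn, Lum, Bgn, Lox, Fbn1, Nid1, Nid2, Hspg2, Sparc, Sdc1, Sdc2, Sdc4, Tnc or Postn. This gave 125 probe sets for 85 genes, of 14218 genes that the array names. Integrin chains whose symbol has a letter in place of the digit, such as Itgav, are not among them, and Itgb1bp1, Itgb1bp2 and Itgb3bp are, although they encode proteins that bind an integrin chain and not a chain itself.

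All cells were primary granulosa cells. They came from immature Sprague-Dawley females aged 24 to 25 days, punctured from follicles 48 h after the rats were given PMSG, a gonadotropin of pregnant mares that drives follicles to the preovulatory stage, and were cultured in Opti-MEM with insulin, transferrin and selenium. Every group carried an adenovirus at 50 pfu per cell for 2 h, so no group was uninfected. The first group received the virus for green fluorescent protein and no stimulus (Ad-GFP, the control array). The second received the same virus and, 24 h after infection, 10 uM forskolin and 20 nM phorbol 12-myristate 13-acetate for 6 h (Ad-GFP with FSK/PMA). Forskolin raises cAMP and the phorbol ester switches on protein kinase C, and together they stand in for the ovulatory hormone. The third received a virus for the transcription factor NFIL3 and the same FSK/PMA (Ad-NFIL3 with FSK/PMA). Each group is 1 Affymetrix rat array on RNA pooled from 3 experiments. There is therefore no replicate, no test and no p-value, and each difference compares 2 pools.

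Matrix proteins form the scaffold outside cells. Collagen chains wind into helices that assemble as fibrils or, with laminins, nidogens and perlecan, as the sheet of the basement membrane, which in the follicle parts granulosa cells from the vascular theca. Fibronectin, tenascin and decorin lie between and on these fibres. Integrins, each an alpha and a beta chain, and syndecans, which carry heparan sulfate, bind them at the cell surface. The follicle wall and the granulosa layer are remodelled at ovulation, when granulosa cells turn into luteal cells.

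Each probe set has a MAS5 signal as deposited, an intensity on a linear scale. Low MAS5 signals are noisy, so a floor of 126, the median of the whole table, replaced every lower signal before log2 was taken. A gene counts as measured in a comparison if either array exceeded this floor. A gene is given by its brightest probe set. With 1 array under the floor only a lower limit of the fold is known, written as at least that size. A signal is not set against that of another gene, since probe sets differ in brightness. Signals are given in the order control, FSK/PMA, NFIL3 with FSK/PMA. Nfil3 itself read 564, 1321 and 5882, highest on the array labelled Ad-NFIL3. After scaling, the 9 hybridisation controls added to each sample were brighter on the stimulated arrays than on the control array, by 1.40 times with FSK/PMA and 1.46 times with NFIL3. Of 12 granulosa markers listed, 11 were on the array and all 11 were above the floor on some array, among them Inha, the inhibin alpha subunit (26489 on the control array), and Foxl2 (4616). With FSK/PMA 2 of the 11 were at least 2-fold higher (Cyp11a1 and Cyp19a1, of steroid synthesis) and 5 lower, and with NFIL3 0 were higher and 4 lower. Their summed signal, set mostly by Gja1, Inhba and Inha, was 123105, 101710 and 68173. Endothelial markers were above the floor in 2 of 6 genes (Kdr and Egfl7), with Pecam1, Tek, Tie1 and Vwf below it. The sums of all 6, taken before the floor, were 435, 529 and 583. Kdr was lowest on the NFIL3 array (190, 180 and 138), while Egfl7 was highest there (102, 190 and 216). The part of these shifts in the differences below was not tested. In RNA from whole cultures, fewer cells of a type and less RNA per cell cannot be told apart, and this touches every difference below.

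Of the 85 genes, 57 were above the floor on at least 1 array and 40 on all 3, while 28 were at or below it on all 3. Of those 28, 18 were collagens. They included the type IX chains Col9a1, Col9a2 and Col9a3 of cartilage, the type VI chains Col6a1 and Col6a2, and Col10a1 and Col17a1, known from growth plate and skin. The laminin alpha chain genes Lama2, Lama3 and Lama5, the proteoglycan gene Lum and the matrix gene Postn were also below the floor throughout, as were the integrin genes Itga2b of platelets and Itgb4 and Itgb6 of epithelia.

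With FSK/PMA, 5 of 54 measured genes of the set were higher by 2-fold or more and 6 were lower by as much. Col18a1, Itga1, Sdc1, Tnc and Col24a1 were the higher genes, and Lama4, Lama1, Itga5, Col8a1, Lox and Col27a1 the lower ones. Over all 9395 genes measured in this comparison, 7.43% were at least 2-fold higher and 11.4% at least 2-fold lower, so the set, with 9.26% and 11.1%, lay near the background. The median log2 difference of the set was -0.03 against -0.10 over all measured genes, and above 0 when arrays were scaled to the same median or quantile normalised. With NFIL3, 3 of 53 measured genes were at least 2-fold higher (Fn1, Dcn and Itgb7) and 1 was at least 2-fold lower (Col11a1). The background over 9397 genes was 1.34% higher and 0.958% lower, and the medians were 0.05 for the set and 0.03 for all genes, both below 0 when arrays were scaled to the same median. That scaling gave 3 higher and 3 lower genes of the set. No gene passed 2-fold in both comparisons: 15 genes did in 1 of them. The comparisons share the Ad-GFP array with FSK/PMA, so a high or low signal on that array moves both.

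**Figure D1:**
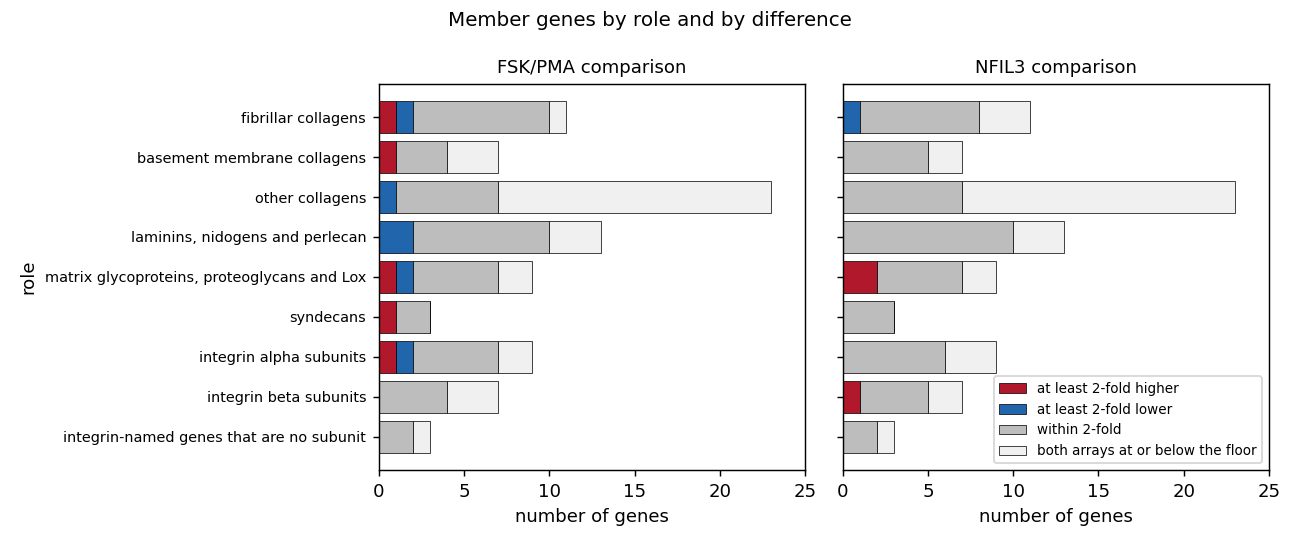
Number of genes of the set (horizontal axis) in each role (vertical axis), for the FSK/PMA comparison on the left and the NFIL3 comparison on the right. Red counts genes at least 2-fold higher, blue at least 2-fold lower, mid grey within 2-fold and pale grey those with both arrays at or below the floor; the pale part is longest for the other collagens, where 15 of 23 genes were below the floor on all 3 arrays.

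The only error the table holds is the disagreement of probe sets for 1 gene, since 31 of the 85 genes have more than 1, up to 4. Over all genes with 2 or more measured probe sets it gave a robust SD of 0.33 for a log2 difference with FSK/PMA and 0.23 with NFIL3. This leaves out the spread between cultures. Among the genes of the set, all measured probe sets had the same direction in 15 of 19 genes with FSK/PMA (78.9%, against 70.9% over all genes) and in 13 of 20 with NFIL3 (65%, against 56.6%). Of the 15 genes past 2-fold, 10 have 1 probe set only. The others are Col11a1, Col18a1, Lama4, Lox and Sdc1.

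**Figure D2:**
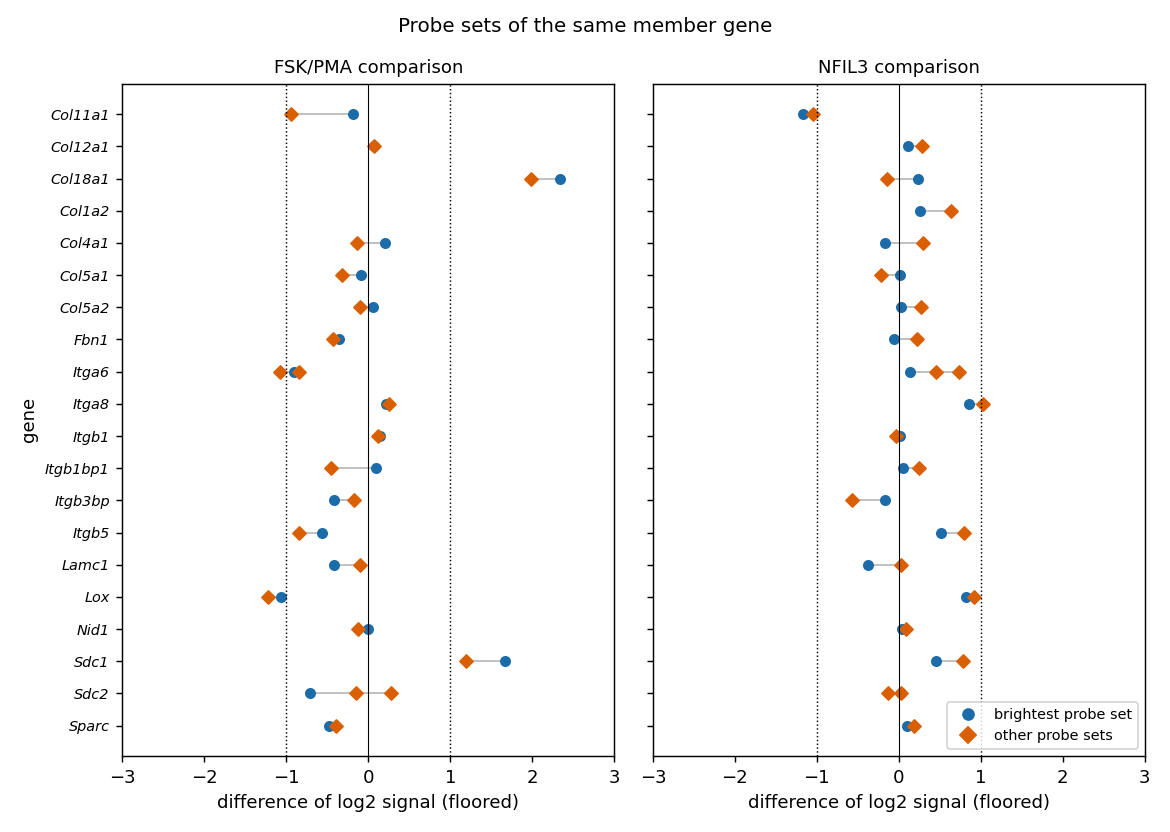
Difference of floored log2 signal (horizontal axis) for every measured probe set of the genes that have 2 or more (vertical axis), with FSK/PMA on the left and NFIL3 on the right; blue circles are the brightest probe set, orange diamonds the others, dotted lines 2-fold. Both probe sets of Col18a1, Sdc1 and Lox lie past 2-fold in the FSK/PMA comparison, and both measured probe sets of Col11a1 lie past 2-fold in the NFIL3 comparison, while the 3 probe sets of Sdc2 lie on both sides of 0 with FSK/PMA.

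Fibrillar collagens, the chains that form banded fibres, were measured in 10 of 11 genes with FSK/PMA, 1 higher and 1 lower, and their median log2 difference was -0.14. The type V genes, whose protein limits fibril width, had nearly level signals: Col5a1 had 1589, 1493 and 1505, and Col5a2 had 1186, 1238 and 1256. Col3a1, of the type III collagen of soft tissue, had 395, 331 and 341. The 3 arrays of each of these genes lay within 2-fold. The type I genes stood close to the floor, at 151, 101 and 121 for Col1a1 and 165, 136 and 161 for Col1a2. These chains are the bulk collagen of stroma.

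Col11a1, a minor chain that nucleates cartilage fibrils, had signals of 1211, 1065 and 475. The NFIL3 array was the low one, 2.24-fold lower than FSK/PMA alone (log2 difference -1.17), and a second probe set with signals of 694, 359 and 174 differed by -1.04. The same probe sets differed by -0.18 and -0.95 with FSK/PMA. With the mean of all its probe sets, of which the third was below the floor, the NFIL3 difference was -0.74, inside 2-fold. With the floor at the 75th percentile the NFIL3 difference was -0.96, also inside 2-fold.

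Col27a1, another cartilage fibril chain, had 260 on the control array and 112 and 120 on both stimulated arrays, which lie below the floor. It was at least 2.07-fold lower with FSK/PMA and its log2 difference was -0.96 with quantile normalisation, inside 2-fold. Col24a1, a fibrillar chain known from bone, went the other way. Its signals were 8.04, 297 and 241, and it was at least 2.36-fold higher with FSK/PMA. The size of this difference follows the floor, with a log2 value of 1.24 at the floor used and 2.69 with a floor at the 25th percentile. Its NFIL3 log2 difference was -0.30.

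Promoters are shown for Col24a1 and Lamb3 because they were the only genes of the set whose promoter windows held the cAMP response element TGACGTCA, the site of CREB family factors that forskolin signals act through. The element was searched on both strands in RefSeq windows of build GRCr8 from 250 bases before to 50 after each annotated start, and was in 1.83% of all 33469 windows. Windows were found for 64 of the 85 genes (67 windows). Col24a1 has 3 overlapping windows with the same element. The 250 bases before 1 of its starts, at chr2:236872384-236872633 on the plus strand, and those before the start of Lamb3, at chr13:107362303-107362552 on the plus strand, are printed 5′ to 3′ with the element in capitals.
Col24a1: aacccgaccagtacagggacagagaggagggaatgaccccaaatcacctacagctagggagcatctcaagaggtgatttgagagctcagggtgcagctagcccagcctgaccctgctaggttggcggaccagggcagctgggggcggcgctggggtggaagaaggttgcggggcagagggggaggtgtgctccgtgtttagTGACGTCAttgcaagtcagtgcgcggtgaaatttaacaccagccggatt
Lamb3: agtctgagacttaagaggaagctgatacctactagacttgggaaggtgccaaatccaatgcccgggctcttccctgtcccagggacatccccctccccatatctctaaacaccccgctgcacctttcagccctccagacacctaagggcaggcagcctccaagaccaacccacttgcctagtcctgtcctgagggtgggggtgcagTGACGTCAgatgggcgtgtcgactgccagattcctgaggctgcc
The element began 49 bases before that start of Col24a1 and 44 bases before the start of Lamb3. Lamb3, a laminin beta chain known from epithelial basement membrane, had signals of 591, 1067 and 1201, a log2 difference of 0.85 with FSK/PMA, inside 2-fold, and 0.17 with NFIL3. For both genes the 2 stimulated arrays were the high ones. Of the 15 genes of the set past 2-fold in a comparison, 12 had a window, and 1 of these, Col24a1, held the cAMP response element. Col18a1, Itga1, Sdc1 and Tnc, also higher with FSK/PMA, had windows without it. A link between this element and the signals was not tested. The AP-1 element TGANTCA was in 7.33% of all windows and in those of Col6a1 and Lama3, both below the floor. The element TTANGTAA, bound by NFIL3 and the related PAR bZIP factors, was in 2.24% of all windows and in 0 windows of the set. Fn1, Dcn and Lox had no window and were not searched for any motif. Of the 3 genes at least 2-fold higher with NFIL3, only Itgb7 was searched. The 3 motifs were read as letters only, and no binding was measured.

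Of 7 basement membrane collagen genes, 4 were measured with FSK/PMA, 1 of them higher and 0 lower, and 5 were measured with NFIL3, with 0 past 2-fold. Col18a1, whose protein releases the fragment endostatin, had 340, 1715 and 2011. Both stimulated arrays were high, and the gene was 5.05-fold higher with FSK/PMA, a log2 difference of 2.34. With the floor at the 75th percentile, above its control signal, the difference was 1.65. A second probe set had 359, 1419 and 1288 and differed by 1.98. With NFIL3 the probe sets differed by 0.23 and -0.14, so their direction was not the same.

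The type IV genes, which form the network of every basement membrane, stood within 2-fold on all arrays. Col4a1 had 540, 620 and 549, Col4a2 had 446, 458 and 449, and Col4a5 had 2906, 2293 and 1957. A second Col4a1 probe set had 448, 406 and 500. The log2 differences of the brighter and the other Col4a1 probe set had opposite signs: 0.20 and -0.14 with FSK/PMA, and -0.17 and 0.30 with NFIL3. Col4a5 was lowest on the NFIL3 array, with log2 differences of -0.34 and -0.23. Col4a4 and Col4a6 were below the floor on all arrays. Col15a1, which links basement membrane to fibrils, was above the floor on the NFIL3 array alone, at 192.

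Among 23 other collagens 7 were measured with FSK/PMA, 1 of them lower and 0 higher, and 7 with NFIL3, with 0 past 2-fold. Col8a1, a short chain that forms networks around vessels and in the cornea, had 3219, 1366 and 748. The control array was highest and the NFIL3 array lowest. It was 2.36-fold lower with FSK/PMA, and a further log2 difference of -0.87 with NFIL3 became -1.11, past 2-fold, when arrays were scaled to the same median. The NFIL3 array was 4.30-fold below the control array. Col16a1 and Col12a1, chains that lie on fibrils, had 1128, 1004 and 771, and 346, 362 and 390.

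Of 13 genes of laminins, nidogens and perlecan, 10 were measured in each comparison. With FSK/PMA 2 were lower, both of them alpha chains, and 0 were higher, and with NFIL3 0 passed 2-fold. Lama4, an alpha chain of vessel basement membrane, had 1377, 327 and 271. The control array stood apart from both stimulated arrays, and the gene was 4.21-fold lower with FSK/PMA, a log2 difference of -2.07. A second probe set was below the floor on all arrays, and with the mean of both the difference was -1.04, just past 2-fold. With the floor at the 75th percentile it was -1.33. Lama1, the alpha chain of early embryonic basement membrane, had 2250, 741 and 1129 and was 3.04-fold lower. On the NFIL3 array its signal lay between the other 2, with a log2 difference of 0.61.

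The beta and gamma chains lay within 2-fold in both comparisons. Lamb1, the widely used beta chain, had 4386, 7341 and 8943, with log2 differences of 0.74 with FSK/PMA and 0.28 with NFIL3. Lamb2, a beta chain of muscle and kidney, had 2232, 1155 and 1149, with a log2 difference of -0.95 with FSK/PMA, close to 2-fold, and -0.01 with NFIL3. The FSK/PMA differences of Lamb1 and Lamb2 thus had opposite signs, which they kept under all 3 scalings. Lamc1, the common gamma chain, had 2780, 2085 and 1604, and its second probe set had 601, 559 and 572. Nid1, which ties laminin to type IV collagen, was level at 192, 192 and 197, and Hspg2, perlecan, had 343, 424 and 368.

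Fibronectin had the highest NFIL3 difference of the set, here and under each of the 7 alternatives. Fn1 had signals of 182, 353 and 1833. The NFIL3 array was the high one and the control array the lowest, and the gene was 5.19-fold higher with NFIL3, a log2 difference of 2.38, and 1.74 with the floor at the 75th percentile. With FSK/PMA the log2 difference was 0.95, just inside 2-fold, and 1.09 or 1.11 when arrays were scaled to the same median or quantile normalised. The NFIL3 array was 10.0-fold above the control array. Fn1 has 1 probe set, so no second reading of this difference was at hand.

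Dcn, decorin, a proteoglycan that coats collagen fibrils, had 201, 196 and 481. The first 2 arrays were level and the NFIL3 array was 2.45-fold higher (log2 difference 1.29). Dcn is a marker of theca and stroma, so the other markers on that list were read beside it. Their summed signal, over 10 genes without Dcn, was 1183, 987 and 1126. Of all 11 listed, 6 were above the floor on some array, and Cyp17a1 and Insl3, which define theca cells, were below it on all 3, with Pdgfrb, Lum and Tagln. Of the 4 markers measured in the NFIL3 comparison only Dcn passed 2-fold, and the other 3 were also higher on the NFIL3 array: Pdgfra by a log2 difference of at least 0.24, Col1a2 by 0.25 and Col3a1 by 0.05. The second probe set of Col1a2 differed by at least 0.64. The median of these 4 markers, Dcn itself among them, was 0.25. The part of stromal cells in the Dcn difference was not tested. Bgn, biglycan, a close relative of decorin, had 153, 161 and 209, with an NFIL3 log2 difference of 0.38.

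Of the 9 glycoproteins, proteoglycans and Lox, 7 were measured, with 1 higher and 1 lower with FSK/PMA and 2 higher and 0 lower with NFIL3. Tnc, tenascin C, a glycoprotein of remodelled tissue that loosens adhesion, had 358, 1055 and 538. The FSK/PMA array was the high one. It was 2.95-fold higher with FSK/PMA, and its NFIL3 log2 difference of -0.97 lay just inside 2-fold and was -1.21 with arrays scaled to the same median. With a floor at the 75th percentile of all signals its FSK/PMA difference was 0.95.

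Lox, the enzyme that crosslinks collagen and elastin, showed a low FSK/PMA array. Its signals were 465, 222 and 392, and it was 2.10-fold lower with FSK/PMA. A second probe set had 472, 202 and 381. The log2 differences of the brighter and the other probe set were -1.07 and -1.22 with FSK/PMA and 0.82 and 0.91 with NFIL3. With arrays scaled to the same median or quantile normalised, the FSK/PMA difference of the brighter probe set was -0.93 or -0.88, inside 2-fold. Sparc, which binds collagen, had 5099, 3668 and 3931, and Fbn1, fibrillin of elastic microfibrils, had 744, 580 and 554. Both lay within 2-fold in both comparisons, with 2 probe sets each.

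**Figure D3:**
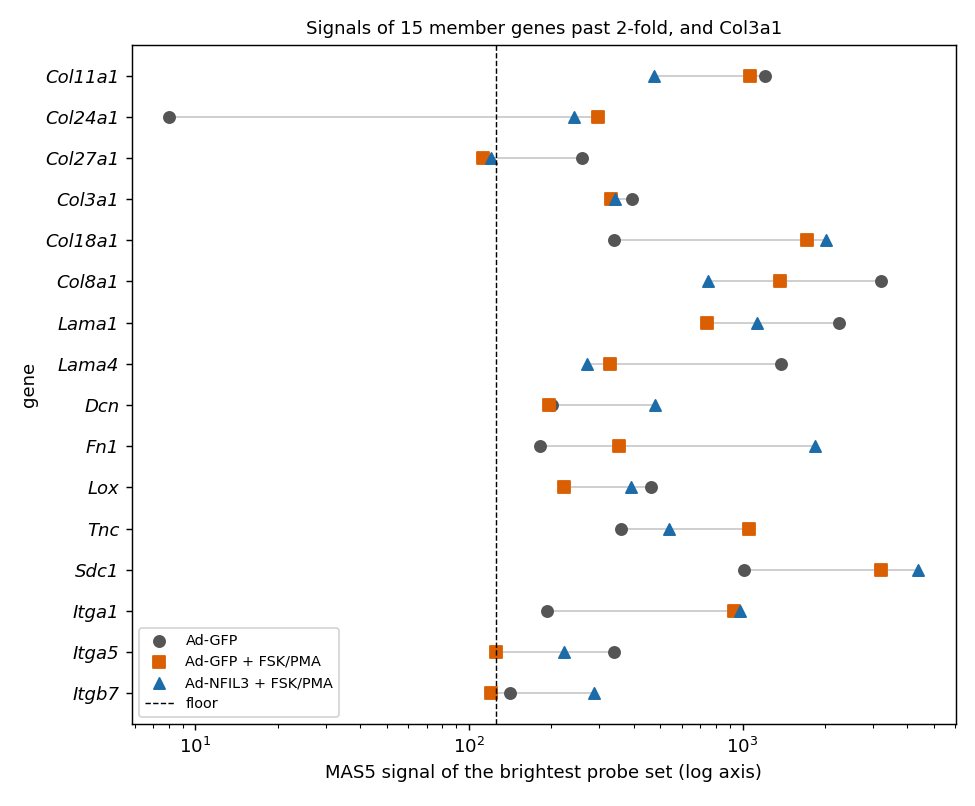
MAS5 signal of the brightest probe set (horizontal log axis) of the 15 genes past 2-fold in a comparison and of Col3a1 (vertical axis), with grey circles for the control array, orange squares for FSK/PMA and blue triangles for NFIL3 plus FSK/PMA; the dashed line is the floor of 126, and each point is 1 array. Fn1 and Dcn have a blue triangle far to the right of the other points, and Tnc has its orange square on the right.

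Syndecans were measured in all 3 genes of the set. Sdc1, the main syndecan of epithelia, had 1011, 3212 and 4381. The control array was the low one, and Sdc1 was 3.18-fold higher with FSK/PMA. Its second probe set had 240, 550 and 945, so both were in the same order. The log2 differences of these probe sets were 1.67 and 1.20 with FSK/PMA and 0.45 and 0.78 with NFIL3. Sdc4, which joins integrins at focal adhesions, had 2381, 3556 and 6347, with log2 differences of 0.58 and 0.84, each inside 2-fold. The NFIL3 array was 2.67-fold above the control array. Sdc2 had 1103, 674 and 687 in its brightest probe set, but its 3 probe sets differed by -0.71, -0.15 and 0.28 with FSK/PMA.

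Integrin alpha chains, which set what an integrin binds, were measured in 7 of 9 genes with FSK/PMA, 1 higher and 1 lower. Itga1, a collagen-binding chain, had 194, 934 and 979. The stimulated arrays were both high, and Itga1 was 4.82-fold higher with FSK/PMA (log2 difference 2.27), with an NFIL3 log2 difference of 0.07. With the floor at the 75th percentile the FSK/PMA difference was 0.77, since that floor lies above the control signal. Itga5, the chain of the fibronectin receptor, had 339, 125.6 and 224, with the FSK/PMA array just below the floor. It was at least 2.70-fold lower with FSK/PMA, and the NFIL3 log2 difference was at least 0.83. Its FSK/PMA array was the low one.

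Itga3 and Itga6 are among the laminin-binding chains. Itga6 had 5271, 2803 and 3080, a log2 difference of -0.91 with FSK/PMA, and 2 further measured probe sets differed by -1.08 and -0.85. With quantile normalisation the brightest differed by -1.03, past 2-fold. Itga3 had 275, 317 and 475, with an NFIL3 log2 difference of 0.58. Itga8, a receptor chain for fibronectin and nephronectin, had 3911, 4545 and 8233. The NFIL3 array was high in it, with a log2 difference of 0.86, and in a second probe set, with 739, 878 and 1791 and a difference of 1.03. By the brightest probe set it was not counted as past 2-fold.

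Integrin beta chains were measured in 4 of 7 genes with FSK/PMA, with 0 past 2-fold, and in 5 with NFIL3, with 1 higher. Itgb1, the partner of most alpha chains named here, was level at 11147, 12255 and 12361, and its second probe set at 5948, 6449 and 6306. Itgb5, a vitronectin receptor chain, had 2872, 1941 and 2766, with log2 differences of -0.57 and 0.51. Its second measured probe set, with -0.84 and 0.79, had the same directions. Itgb7, a chain of leukocyte integrins, had 141, 120 and 287 and was at least 2.28-fold higher with NFIL3. Leukocyte markers were read beside it: their summed signal over 7 genes without Itgb2 was 2299, 2945 and 3286. With FSK/PMA 1 of 5 measured markers was at least 2-fold higher, Cd14 (606, 1488 and 1562), while Lyz2 (1110, 769 and 970) was lower. With NFIL3 Cd74 was lower, by a log2 difference of -0.33. Cd68, Cd14, Lyz2, Csf1r and Itgb2 were higher, Lyz2 the most at 0.33. Of all 8 markers 6 were above the floor on some array, Ptprc and Itgam were below it on all 3, and 0 of 6 measured passed 2-fold with NFIL3. Their part in the Itgb7 difference was not tested. Itgb2, also of leukocytes, had 121, 153 and 169. Itgb3 had 17.4, 13.8 and 179, above the floor with NFIL3 only. Its NFIL3 log2 difference was at least 0.51, and 1.96, past 2-fold, with a floor at the 25th percentile.

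The genes named for an integrin that are no chain lay within 2-fold. Itgb1bp1, whose protein binds the tail of the Itgb1 chain, had 1312, 1396 and 1449. Itgb3bp, a centromere protein, had 979, 734 and 654.

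**Figure D4:**
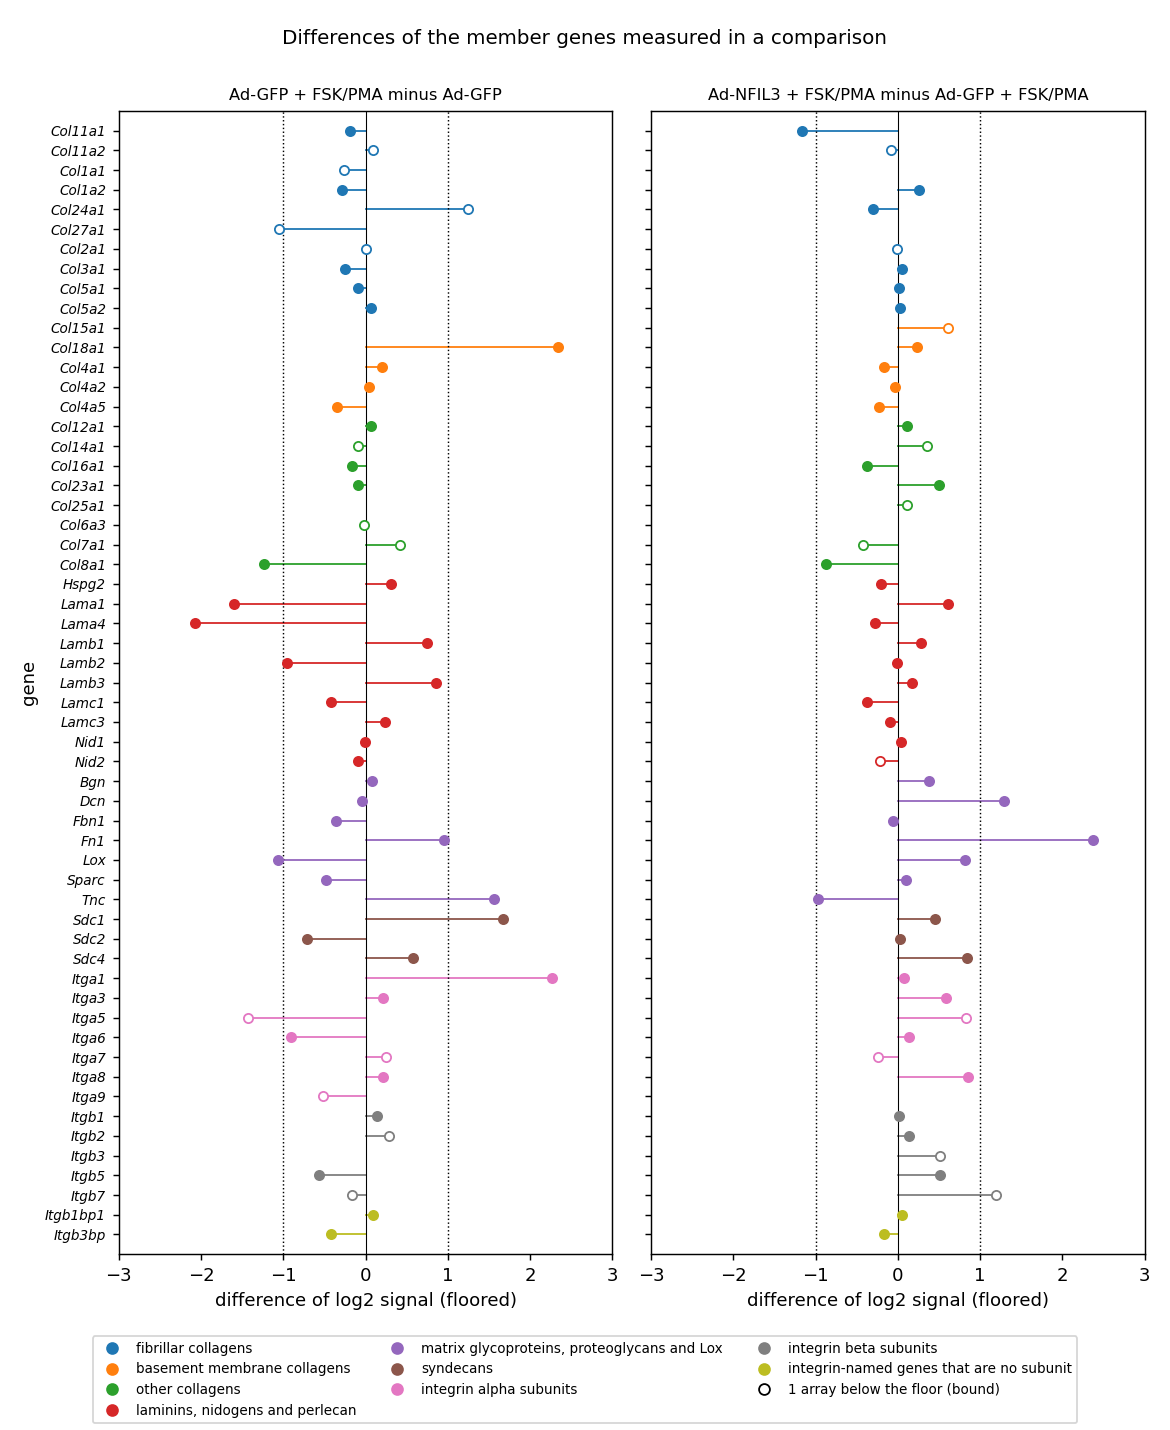
Difference of floored log2 signal (horizontal axis) for each gene of the set measured in a comparison (vertical axis, coloured by role), FSK/PMA minus control on the left and NFIL3 minus GFP virus, both with FSK/PMA, on the right; dotted lines mark 2-fold, and open circles are bounds with 1 array below the floor. The left panel spreads from -2.07 (Lama4) to 2.34 (Col18a1), while the right panel holds 4 genes past 2-fold, with Fn1 at 2.38.

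Other genes of matrix and adhesion were read from lists, to be set beside the shares over all genes, 7.43% higher and 11.4% lower with FSK/PMA and 1.34% and 0.958% with NFIL3. At list sizes of 12 to 32 measured genes, these counts are small and are given as a description. Of 25 listed genes of collagen biosynthesis and processing, 19 were on the array and 13 were measured in each comparison, with 0 higher and 0 lower in both. Their median log2 difference was -0.32 with FSK/PMA and 0.13 with NFIL3. With FSK/PMA the largest were Colgalt1, which adds galactose to collagen, at -0.79 and Pcolce, which aids procollagen cleavage, at -0.73. Plod2, which hydroxylates collagen lysines for crosslinks, had 17089, 13648 and 9586, with an NFIL3 log2 difference of -0.51.

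Of 38 other matrix proteins listed, 34 were on the array and 17 were measured with FSK/PMA, with 2 higher and 4 lower, and 18 with NFIL3, with 0 higher and 1 lower. Spp1, osteopontin, a ligand of integrins, had 567, 2504 and 4225 and was 4.42-fold higher with FSK/PMA. Matn2, a matrilin, was at least 2.51-fold higher with FSK/PMA and 2.14-fold lower with NFIL3, with signals of 92.6, 317 and 148. Ccn2, a matricellular protein also called CTGF, had 8738, 3494 and 1964 and was 2.50-fold lower with FSK/PMA, and Fbn2, a second fibrillin, had 1831, 741 and 522 and was 2.47-fold lower.

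Of 15 other matrix receptors, 12 were measured, with 2 higher and 0 lower with FSK/PMA and 1 higher and 0 lower with NFIL3. Gpc4, a glypican that carries heparan sulfate, had 6772, 14458 and 12166 and was 2.14-fold higher with FSK/PMA. The other was Plaur, the urokinase receptor, 13.0-fold higher, with signals of 129, 1669 and 1696. The control signal of Plaur was just above the floor, which limits what its fold size can tell. Sdc3, a syndecan outside the set, had 638, 324 and 679 and was 2.10-fold higher with NFIL3, with a log2 difference of -0.98 with FSK/PMA.

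Of 35 listed genes of integrin adhesion, adaptors and kinases among them, 32 were measured in each comparison. Of these, 1, Itgb1bp1, also belongs to the set. With FSK/PMA 3 were higher and 5 lower. Ptk2b, a focal adhesion kinase relative, was 2.91-fold higher and Tgfb1i1, a paxillin relative, was 3.23-fold lower, with signals of 881, 273 and 356. Kank2, which binds talin, was 2.95-fold lower and Fermt3, the kindlin of blood cells, was 2.87-fold lower. Fermt3 had signals of 364, 127 and 246, with the FSK/PMA array just above the floor. With NFIL3 1 was higher and 0 were lower: Tns1, tensin, which binds integrin tails, had 199, 217 and 471 and was 2.17-fold higher.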

How the data were processed

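Expression was measured on 3 Affymetrix rat arrays, 1 for each group, with RNA pooled from 3 experiments per the labels' protocols. What the authors deposited is a signal intensity for each probe set, linear in scale and made with MAS5 per the submitters' processing notes, which name no version. Each column had a 2% trimmed mean of 500.2 as deposited, and arrays were rescaled to the same value of it. Of 31099 probe sets, 20832 had 1 gene symbol, 436 several and 9831 none in the platform annotation. Entrez IDs matched 20764 of these to current symbols in the RefSeq table of assembly GRCr8, which changed 0 symbols of the set.

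A gene was given by its brightest probe set, signals were set to a floor of 126, and differences of log2 signal of at least 2-fold were counted. With 1 array per group no test was possible, and precision is limited by how few arrays there are. The set and all lists were chosen with earlier results of these data known. The text names genes past 2-fold in a comparison, genes of at least 4 times the floor, the markers Fn1, Dcn and Col3a1, and up to 4 genes of each companion list with the largest difference; a few others were named for their role or their level, after their values were seen. The 6 other lists are cell type markers. Oocyte markers had 1 of 5 genes on the array above the floor (Zp2, at 891, 406 and 269), and red cell markers 2 of 2. Hbb, of red cells, had 19442, 18005 and 15376, and Alas2 had 494, 361 and 338. The part of blood cells in the differences described was not tested. Simulated data, with folds well past 2-fold planted in genes well above the floor, were used to test the calculation. They do not cover folds near 2-fold or genes near the floor. Python 3.11.15, numpy 2.4.6, pandas 2.3.3 and matplotlib 3.10.9 were used.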

Additional observations from a re-analysis of the deposited data

How the results depend on the processing

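No paired analysis was possible because each group had 1 array and the labels give no replicate numbers. Of the 15 differences past 2-fold, 10 stayed past 2-fold in the same direction under each of the 7 alternatives that gave a value; the exceptions were Col11a1, Col27a1, Lox, Tnc and Itga1, with values beside them in the text, and 0 reversed. A floor at the 75th percentile leaves fewer genes measured (27 in each comparison). Col24a1, Itga5, Dcn and Itgb7, which are among the 10, lay below that floor and gave no value there, so that setting did not test them.

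The FSK/PMA counts (5 higher, 6 lower) were 8 higher and 8 lower with a floor at the 25th percentile, 8 higher and 9 lower with 1.5-fold counted, and 2 higher and 3 lower with a floor at the 75th percentile. The NFIL3 counts (3 higher, 1 lower) were 6 higher and 4 lower with the low floor, 1 higher and 0 lower with the high floor, 9 higher and 3 lower with 1.5-fold counted, 3 lower with arrays scaled to the same median and 0 lower with the mean of all probe sets. With arrays scaled to the same median the FSK/PMA counts were 6 higher and 5 lower, as with quantile normalisation, and the NFIL3 split was 3 and 3. Over all genes that scaling gave 856 higher and 852 lower with FSK/PMA and 48 higher and 190 lower with NFIL3, with medians of 0.03 and -0.20 in place of -0.10 and 0.03.

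The median of the set with FSK/PMA was -0.17 with the high floor, 0.076 with arrays scaled to the same median and 0.090 with quantile normalisation, so its sign is not settled. With NFIL3 it was 0.10 with the low floor and -0.18 with arrays scaled to the same median. The cause of these shifts was not tested. Leaving out probe sets with the suffix _s_at or _x_at, and keeping the symbols of the annotation, changed no count of the set. Signals near the floor, such as those of Itgb7, Itga5 and Col27a1, limit what can be read.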
